A study of Mus musculus with 3 samples.

Results

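Immunoglobulin transcripts were followed in B lymphocytes of the cauda epididymis of the mouse through 9 genes: the heavy chain constant genes Ighm, Ighd, Ighg3 and Igha, the light chain constant genes Igkc, Iglc1, Iglc2 and Iglc3, and Jchain, which encodes the joining chain. They are 9 of the 26124 genes in the matrices and were chosen by symbol. They were read in barcodes with at least 500 unique molecular identifiers (UMIs) in which Cd79a, Cd79b and Ms4a1 together held at least 0.1% of the UMIs. Cd79a and Cd79b encode the signalling subunits of the B cell antigen receptor and Ms4a1 encodes CD20. The rule gave 2060 B barcodes of 3937 in the KO cauda library (52.3%) and 71 of 222 in the chimera cauda library (32.0%).

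The cauda library called KO here is from a goGermline mouse without functional Tsc22d3. In the chimera, mouse induced pluripotent stem cells (labelled Pax7-nGFP iPS) complemented a host with the same knockout. The cauda samples were taken by percutaneous aspiration of epididymal sperm, and the labels give the chimera library as spermatids and spermatozoa. Testicular cells of an adult goGermline knockout are used here only for a comparison of macrophages. Each group is 1 library, all 3 groups carry the Tsc22d3 knockout in host cells, and B cells of host and of stem cell origin cannot be told apart in the chimera by these genes. With 1 library per group there is no test: the intervals in parentheses are exact 95% intervals for counting error and do not cover the spread between animals. Those of levels, level ratios and UMI shares count each UMI as independent, so they do not cover the spread between barcodes either. For Jchain and Igha, as given below, a few barcodes held most UMIs of a library, and such intervals are too narrow.

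A B cell makes its antigen receptor from a heavy chain and a light chain. Each chain gene is assembled by joining variable, joining and, in the heavy chain, diversity segments, which can remove the DNA between the joined segments. Ighm and Ighd are transcribed together in cells that have not switched class, and class switching replaces them by a gamma, alpha or epsilon constant gene. The light chain is of kappa type, with the constant gene Igkc, or of lambda type, with Iglc1, Iglc2 or Iglc3, and most B cells use 1 type. The joining chain links IgM pentamers and IgA dimers in cells that secrete antibody.

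The B barcodes carried B lymphocyte markers beyond those of the rule. All 8 genes of the B lymphocyte list (the 3 genes of the rule and others such as Cd22, Blnk, Pax5 and Ebf1) were above 3 UMIs in both cauda libraries, and the 3 rule genes hold most of the list's UMIs. Outside the rule, Cd22, Blnk, Pax5 and Ebf1 summed to 2182 UMIs per 1000000 (CPM) in KO B barcodes against 27.2 CPM in the other barcodes, and to 2013 against 21.7 CPM in the chimera. Macrophage markers summed to 1436 CPM in KO B barcodes against 40711 CPM in the other barcodes, and to 2365 against 40950 CPM in the chimera. Epididymal epithelium markers were at 1664 CPM in KO and 148 CPM in chimera B barcodes, and sperm markers at 0.520 and 695 CPM. The plasma cell and secretion list, most of whose genes other secreting cells also express, was at 978 CPM in KO B barcodes and 1004 CPM in the others. T and NK markers were at 27.7 and 23.0 CPM in KO and chimera B barcodes and erythroid markers at 6.81 and 88.6 CPM. Their part in the results below was not tested. Just inside the limit, at 0.1% to 0.12%, lay 11 KO and 4 chimera barcodes with median immunoglobulin shares of 0.222% and 0.384% of UMIs. Just outside it, at 0.08% to 0.1%, lay 15 KO barcodes with a median of 0.128% and 1 chimera barcode. Immunoglobulin UMIs of a barcode are here those of the heavy chain constant genes, Igkc, Iglc1, Iglc2, Iglc3 and Jchain.

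The cauda libraries were not independent. Of the 3937 KO cauda barcodes, 3936 had at least 1 UMI in the unfiltered chimera matrix, against 973 of the 18108 KO testis barcodes (5.37%). KO cauda barcodes held 58.8% of all chimera UMIs. Barcodes are called shared here only when they had at least 500 UMIs in both cauda libraries. Of the 222 chimera barcodes with at least 500 UMIs, 125 were also among the KO cauda barcodes, and 121 of these had more UMIs in the chimera, with a median ratio of 5.47. Of the 71 chimera B barcodes 51 were shared, and all 51 were B barcodes in both libraries. Of the 50 with at least 10 light chain UMIs in each library, 47 had the same majority light chain in both. Lambda was the majority chain in 9 of the 50 in the chimera, in 8 in the KO and in 7 in both, so kappa was the more frequent. The 20 chimera B barcodes that were not shared were shallow, with a median of 850.5 UMIs and of 4 immunoglobulin UMIs, and 2 of them had 20 or more immunoglobulin UMIs. Tsc22d3, the deleted gene, was at 64.2 CPM (48.6 to 83.1) in the chimera copies of the shared B barcodes and at 58.7 CPM (28.1 to 108) in the 52 KO B barcodes that are shared. It was at 15.6 CPM (13.9 to 17.5) in the 2008 KO B barcodes that were not shared. Whether the counted 3′ end of Tsc22d3 lies in the deleted stretch is not given in the sources used here, so this value does not check the knockout. Why the libraries share barcodes was not tested. Values are given below with all B barcodes and, where they moved, without the shared ones. Keeping each shared barcode only in the library with more of its UMIs left all 71 chimera B barcodes and 2008 KO B barcodes.

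The 9 members differed widely in level within B barcodes, and each was lower in the other barcodes. In KO B barcodes Igkc was at 12031 CPM (11982 to 12080) and Ighm at 5904 CPM (5870 to 5938), the highest levels among the members. The lambda genes followed, with Iglc2 at 2607 CPM, Iglc1 at 2090 CPM and Iglc3 at 967 CPM. Ighg3, an IgG constant gene, and Jchain were each at 155 CPM on the same number of UMIs, 2981. Ighd was at 132 CPM and Igha at 19.7 CPM. These levels count 1 UMI per captured 3′ end, so they do not scale with transcript length. The members' level in the other KO barcodes was 0.428% to 1.14% of that in B barcodes, with a median of 0.714%. Median depth was 8685.5 UMIs in KO B barcodes and 11178 in the others, so the non-B barcodes were the deeper ones in this library. In the chimera the medians were 11323 and 2911 UMIs, and the other barcodes held between 0 and 1.98% of the B level.

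**Figure D1:**
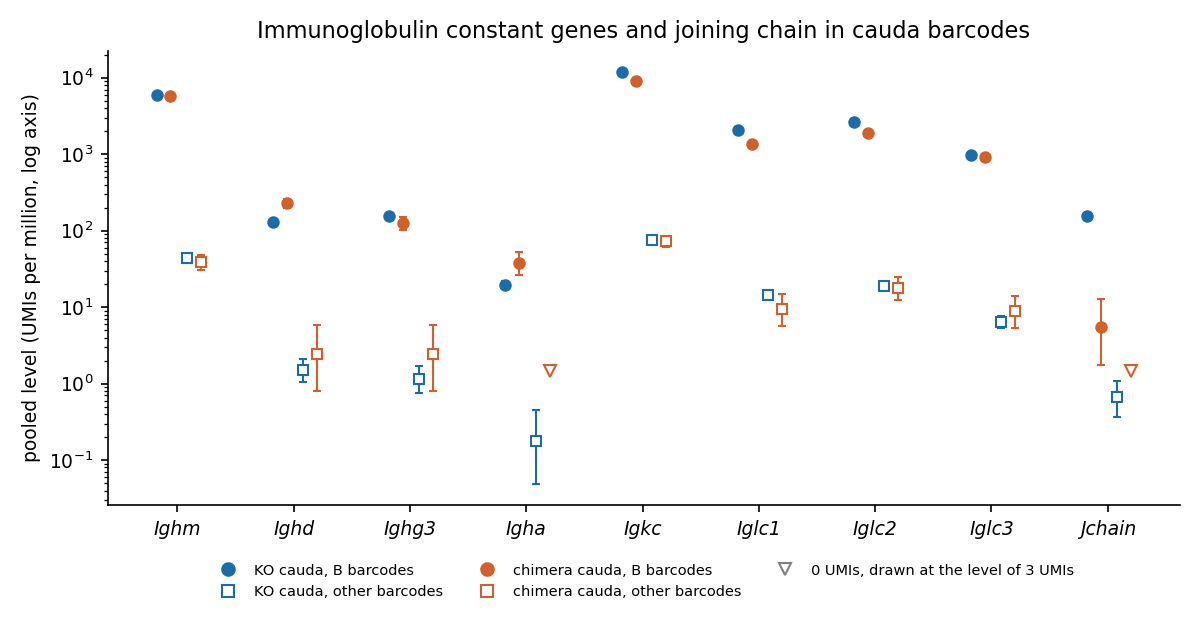
Pooled level of each member in CPM (log axis) in B barcodes (filled circles) and in all other barcodes with at least 500 UMIs (open squares) of the KO cauda (blue) and chimera cauda (orange) libraries. Bars are exact 95% Poisson intervals, and triangles mark 0 UMIs at the level of 3 UMIs. In both libraries each member lies higher in B barcodes than in the others, and Jchain is the member with the widest gap between the libraries.

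Between the libraries, 1 of the 9 members passed the size rule of at least 2-fold among genes reaching 20 CPM in either library. Over all 5700 genes tested, 6.14% passed in either direction, 5.44% higher in the chimera and 0.702% lower. The median log2 ratio of chimera to KO was 0.22 over all genes tested and -0.31 over the 9 members. Jchain was the member past the rule, at 5.47 CPM (1.78 to 12.8) in the chimera, which is 28.3-fold lower than in the KO (12.1 to 87.3). When barcodes with 10% or more immunoglobulin UMIs were left out, its ratio to the KO was 0.109 (0.0353 to 0.255). Ighm was at 5727 CPM in the chimera, a ratio to the KO of 0.970 (0.943 to 0.997), and of 1.05 (1.02 to 1.08) without the same barcodes. Iglc3, at 926 CPM, had a ratio of 0.958 (0.893 to 1.03), and Ighg3, at 125 CPM, of 0.804 (0.661 to 0.970). Igkc, Iglc1 and Iglc2 were 1.32-fold, 1.54-fold and 1.40-fold lower. Ighd, at 227 CPM, was 1.73-fold higher (1.49 to 1.99), and Igha was at 38.3 CPM, a ratio of 1.94 (1.33 to 2.75). For Igha 1 chimera barcode held 29 of the 35 UMIs, and without it Igha was lower than in the KO, at 6.64 CPM and a ratio of 0.337 (0.123 to 0.741). With each shared barcode kept in the library with more of its UMIs, again Jchain alone passed the rule. In the 20 chimera B barcodes that were not shared, 5 members passed it against the unshared KO barcodes: Ighm at 2735 CPM, Ighg3 at 76.0 CPM, Iglc1 at 380 CPM and Iglc2 at 1291 CPM were lower, and Ighd at 494 CPM was higher. These rest on 72, 2, 10, 34 and 13 UMIs. Jchain, at 0 UMIs there, did not pass.

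Heavy chain constant transcripts were nearly all IgM. Ighm held 94.7% of the UMIs of heavy chain constant genes in KO B barcodes and 93.6% in chimera B barcodes. At least 1 Ighm UMI was found in 2001 of 2060 KO B barcodes, or 97.1%, and in 36.6% of the other barcodes. After thinning every barcode to 1000 UMIs, the shares were 95.7% of 1987 B barcodes and 6.87% of 1762 others, and 73 and 115 shallower barcodes were left out. The level in a KO B barcode ran from 0 to 186202 CPM with a median of 5334 CPM, and in a chimera B barcode from 0 to 10958 CPM with a median of 5255 CPM. The genes whose levels followed Ighm most closely over the 2060 KO B barcodes were Cd74, the invariant chain of class II molecules, with r = 0.45, Ms4a1 with 0.42, Cd79b with 0.40, and the class II genes H2-Aa and H2-Eb1 with 0.39 each. Over the 71 chimera B barcodes the same 5 correlations were 0.65, 0.60, 0.80, 0.70 and 0.74. All are Pearson correlations of log(1 + UMIs per 10000) within 1 library, where barcodes share depth and free RNA, and Cd79b and Ms4a1 belong to the rule.

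Ighd, the IgD constant gene, lies at chr12:113406604-113416324 (GRCm38, minus strand), next to Ighm at chr12:113418558-113422730, and both are spliced from 1 primary transcript. Ighd made up 2.18% of Ighm plus Ighd UMIs in KO B barcodes (2.10% to 2.27%) and 3.82% in chimera B barcodes (3.33% to 4.36%). Without the shared barcodes these shares were 2.18% and 15.3% (8.40% to 24.7%), the latter on 85 UMIs. Among barcodes with at least 10 UMIs of both genes together, Ighd was at 0 in 1094 of 1898 in the KO, or 57.6%, and in 15 of 52 in the chimera, or 28.8%. It reached 10% or more in 214 KO barcodes (11.3%) and in 11 chimera barcodes (21.2%). By these counts a small set of barcodes held a high Ighd share and most held little. At the minimum of 10 UMIs, however, 1 Ighd UMI already makes 10%, so part of this spread is counting error. How large that part is was not tested. Median depth was 8685.5 UMIs in KO and 11323 in chimera B barcodes, so the 2 libraries are not compared at equal depth.

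The barcodes with a high Ighd share differed from the rest in B cell subset markers. For this split at least 20 Ighm plus Ighd UMIs were required, a minimum chosen after the data were seen. Barcodes with Ighd at 10% or more (150 in the KO, median depth 5925 UMIs) were set against those under 2% (1276, median depth 9791 UMIs). Fcer2a, which encodes CD23 of follicular B-2 cells, was at 315 against 8.11 CPM, a ratio of 38.9 (31.3 to 48.6), and of 44.4 (36.3 to 54.8) at a minimum of 10 UMIs. Cr2, the complement receptor CD21, was at 134 against 8.40 CPM, and Ccr7, a homing receptor, at 96.5 against 14.4 CPM. Of the B-2 list, Fcer2a, Cr2, Ccr7 and Cd55 had intervals above a ratio of 1, and Klf2 was at 0.988 (0.934 to 1.05). Of the B-1 list, Bhlhe41 and Zbtb32, which encode regulators, were lower, at 64.3 against 158 CPM and 45.4 against 127 CPM. Plscr1 and Spn, which encodes CD43, were also lower, at ratios of 0.303 (0.187 to 0.466) and 0.377 (0.161 to 0.754). Ahr, on 6 and 12 UMIs, was higher at 6.53 (2.01 to 18.8), Itgam (CD11b) was at 63.4 against 48.5 CPM, and Cd9 and Fcrl5 had intervals that include 1. Cd5 had 0 UMIs in the high set and 63 in the low set, which allows a ratio of up to 0.788. In the chimera, with 11 against 30 barcodes, Fcer2a had 60 UMIs (633 CPM) against 0, and Bhlhe41 was at 21.1 against 266 CPM. Itgam had 0 against 31 UMIs there and Cd9 2 against 48. In the KO the ratio was 1.31 (1.001 to 1.68) for Itgam and 1.24 (0.893 to 1.69) for Cd9. All but 2 of these 41 chimera barcodes are shared with the KO library, so the chimera gives no independent value.

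The other members were compared between the same sets. How many of all genes have ratio intervals that exclude 1 in this split was not counted, for these members or for the markers above. Jchain was at 6.62 CPM in the high-Ighd KO barcodes and at 210 CPM in the low ones, a ratio of 0.0316 (0.0127 to 0.0651). The low set holds the 8 barcodes richest in immunoglobulin, described below, and without them the ratio was 0.104 (0.0415 to 0.214). Ighg3 was at 59.6 against 158 CPM, and Iglc1 at 1194 against 2317 CPM. Iglc3 was at 955 against 984 CPM, with a ratio interval of 0.910 to 1.03. Igkc was at 10592 against 13036 CPM, but at a ratio of 0.996 (0.977 to 1.02) without the 8 barcodes, and in the chimera it was higher, at 12547 against 9069 CPM. Igha was higher, at 22.7 against 6.30 CPM, a ratio of 3.60 that fell to 1.85 (1.15 to 2.87) at a minimum of 10 UMIs. The ratio of 3.60 rests on 24 against 87 UMIs, and in the chimera Igha had 0 against 5 UMIs. Lambda-called barcodes, as defined below, were 6% of the high-Ighd and 21.6% of the low-Ighd KO barcodes. Ighm was at 3823 against 6530 CPM, but it enters the share that made the split.

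**Figure D2:**
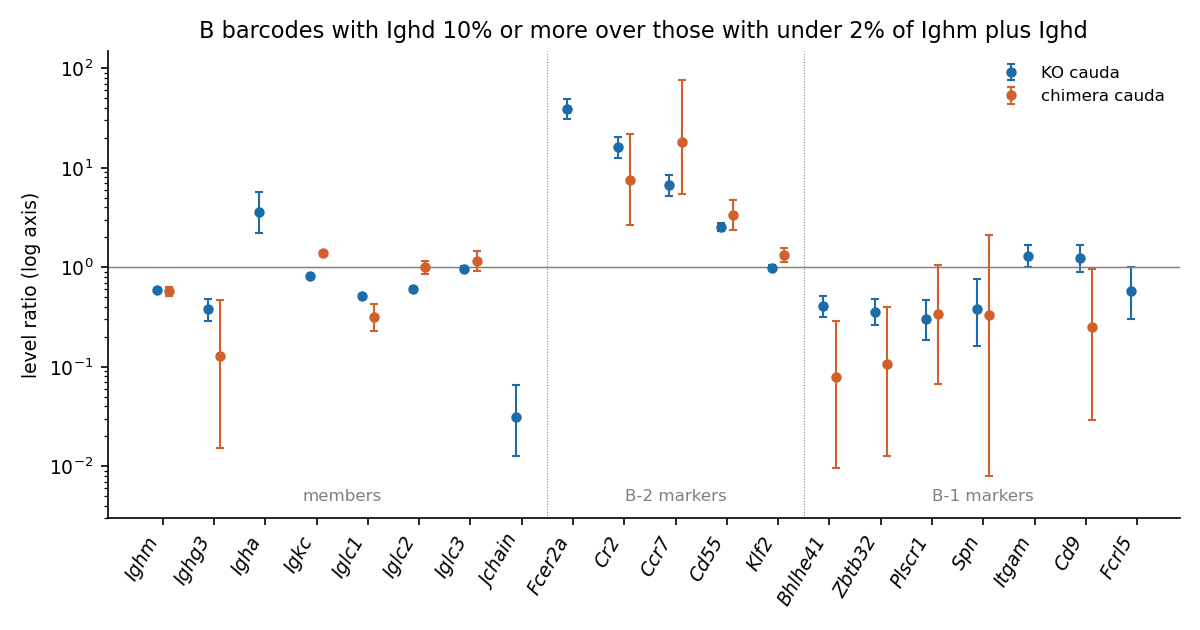
Ratio of levels (log axis) between B barcodes in which Ighd is 10% or more of Ighm plus Ighd UMIs and those in which it is under 2%, for members, B-2 markers and B-1 markers, in the KO cauda (blue) and chimera cauda (orange). Bars are exact 95% intervals for counting error, and genes with 0 UMIs in either set are left out. Fcer2a (38.9 in the KO), Cr2 and Ccr7 lie far above 1, and Jchain (0.0316 in the KO) lies far below it.

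Across all KO B barcodes the 5 genes most correlated with Ighd were Fcer2a (r = 0.59), Neurl3 (0.43), Vpreb3 (0.39), Cr2 (0.39) and Icosl (0.38), the ligand of ICOS. Over the chimera B barcodes the values were 0.82, 0.36, 0.56, 0.38 and 0.37. The lowest r for Ighd in the KO belonged to S100a6 (-0.47) and Plac8 (-0.43), which in the chimera were at -0.03 and -0.08.

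Switched heavy chains were rare. Of the KO B barcodes with at least 5 heavy chain UMIs, 34 of 1966, or 1.73% (1.20% to 2.41%), had 1 gamma or alpha gene at 50% or more of them. Ighg3, at chr12:113356224-113361232, led in 12 of these, Igha, at chr12:113254830-113260236, in 11, Ighg2b in 10 and Ighg1 in 1. Of the 12 Ighg3-led barcodes 6 had no Ighm UMI, and so had 8 of the 11 Igha-led barcodes, with medians of 23 Ighg3 and 20 Igha UMIs per barcode. In the chimera 1 of 53 barcodes was switched, a shared barcode with 29 Igha UMIs and no Ighm. Ighe, the IgE constant gene, had 0 of 119923 heavy chain UMIs in the KO, which allows a share of up to 0.00250%. At a stricter limit of 80% of heavy chain UMIs, 22 KO barcodes (1.12%) were switched.

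Ighg3 was also present at a low level in barcodes led by Ighm. A UMI of Ighg3 was found in 996 KO B barcodes, or 48.3% (46.2% to 50.5%), against 1.28% of the other barcodes, and after thinning to 1000 UMIs in 10.9% against 0.284%. Of the 996, 980 had more Ighm than Ighg3 UMIs, and these held 89.5% of all Ighg3 UMIs. In the chimera 26 of 71 B barcodes had an Ighg3 UMI, and 25 of these had more Ighm. The highest count in a barcode was 53 UMIs in the KO and 11 in the chimera. The 5 genes most correlated with Ighg3 in the KO were Plac8 (r = 0.29), S100a6 (0.27), Dnajc7 (0.26), S100a4 (0.26) and Cplx2 (0.26), with 0.36, 0.31, 0.19, 0.40 and 0.39 in the chimera. These are weak, and Ighd had the lowest r with Ighg3, -0.23 in the KO and -0.19 in the chimera.

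Igha was seen in few barcodes. Its UMIs were seen in 57 KO B barcodes (2.77%), with up to 40 in 1 barcode, and in 7 chimera B barcodes, of which 1 held 29 of the 35 UMIs. In the other barcodes 3 of 1877 had a UMI in the KO and 0 of 151 in the chimera, which allows a share of up to 1.99%. Correlations with Igha were weak in the KO: the highest were Pdcd1lg2 (0.15), which encodes PD-L2, Prxl2c (0.11), Tcf4 (0.10), Kdm6a (0.10) and Gimap7 (0.10), with 0.47, -0.08, 0.17, -0.07 and 0.15 in the chimera. Ighm had the lowest, -0.28.

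The light chain constant genes lie on separate chromosomes, Igkc at chr6:70726435-70726966 on the plus strand and the lambda genes on the minus strand of chromosome 16. In the direction of transcription the order of the lambda genes is Iglv2, Iglv3, Iglc2 (chr16:19198396-19200351), Iglc4, which is no member, Iglv1, Iglc3 (chr16:19065230-19065681) and Iglc1 (chr16:19061618-19062071). The last 120 coding bases before the stop codon, from GENCODE transcripts on GRCm38, are shown because the split of lambda UMIs among 3 genes depends on how far they differ near the 3′ end. Capitals mark the 39 positions at which the 3 genes are not all alike.
Iglc1: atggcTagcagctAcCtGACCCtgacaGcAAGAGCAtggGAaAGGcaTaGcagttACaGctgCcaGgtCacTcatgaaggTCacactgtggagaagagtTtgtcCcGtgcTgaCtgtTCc
Iglc2: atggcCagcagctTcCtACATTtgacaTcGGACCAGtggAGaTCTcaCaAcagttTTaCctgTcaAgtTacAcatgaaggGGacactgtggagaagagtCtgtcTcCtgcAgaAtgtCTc
Iglc3: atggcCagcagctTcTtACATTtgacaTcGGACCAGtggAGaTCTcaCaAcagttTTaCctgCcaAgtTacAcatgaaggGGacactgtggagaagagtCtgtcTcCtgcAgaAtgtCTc
Iglc2 and Iglc3 differ at 2 of these 120 bases and are 95.3% identical over the last 300 bases of their transcripts, with an identical run of 62 bases. Iglc1 is 64.6% identical to Iglc2 and 66.6% to Iglc3 over the same stretch. Counts split between Iglc2 and Iglc3 are therefore uncertain, while Iglc1 stands apart from both.

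Pooled over B barcodes, lambda genes held 32.0% of light chain constant UMIs in the KO (31.9% to 32.2%) and 31.3% in the chimera (30.4% to 32.1%). Without the shared barcodes the chimera value was 21.2% on 273 UMIs. Read per barcode, fewer barcodes were led by lambda than this share. A barcode with at least 10 light chain UMIs was called lambda when Iglc1, Iglc2 and Iglc3 held at least 80% of them, kappa when Igkc held at least 80%, and mixed otherwise. In the KO 359 of 1967 barcodes were lambda, or 18.3% (16.6% to 20.03%), 693 were kappa (35.2%) and 915 were mixed (46.5%). In the chimera 6 of 56 were lambda, or 10.7% (4.03% to 21.9%), 22 were kappa and 28 were mixed. None of the 5 unshared chimera barcodes with enough UMIs was lambda. The KO lambda share was 15.6% with limits of 90% and 10% and 23.7% by simple majority.

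The mixed calls came mainly from lambda UMIs in barcodes led by Igkc. Of the 915 mixed KO barcodes 808 had more Igkc than lambda UMIs and 107 had lambda at 50% or more. By lambda share the KO barcodes had a peak at 10% to 20%, with 559 barcodes, beside 489 at 20% to 30%, and a narrow peak at 90% to 100%, with 306. Only 24 lay at 60% to 70% and 25 at 70% to 80%. The chains were not symmetric. In lambda-called barcodes the median Igkc level was 96.1 CPM and the pooled level 438 CPM, and 57.7% of them had an Igkc UMI. In kappa-called barcodes the summed lambda genes had a median of 2540 CPM against 15593 CPM for Igkc, and a lambda UMI was seen in 692 of 693. In the non-B barcodes of the same library Iglc1, Iglc2 and Iglc3 summed to 39.3 CPM and Igkc to 74.8 CPM. The lambda genes in kappa-called barcodes, at 2789 CPM pooled, thus stood much further above their non-B level than Igkc in lambda-called barcodes did. The calls limit the minor chain to at most 20% of light chain UMIs in both classes. After thinning to 1000 UMIs, 80.9% of KO B barcodes held both kinds of light chain against 1.48% of the others. No doublet caller was run. Leaving out B barcodes with macrophage or T and NK marker UMIs at 0.1% or more gave a KO lambda share of 18.4%, but pairs of B cells in 1 droplet would not be removed by this.

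**Figure D3:**
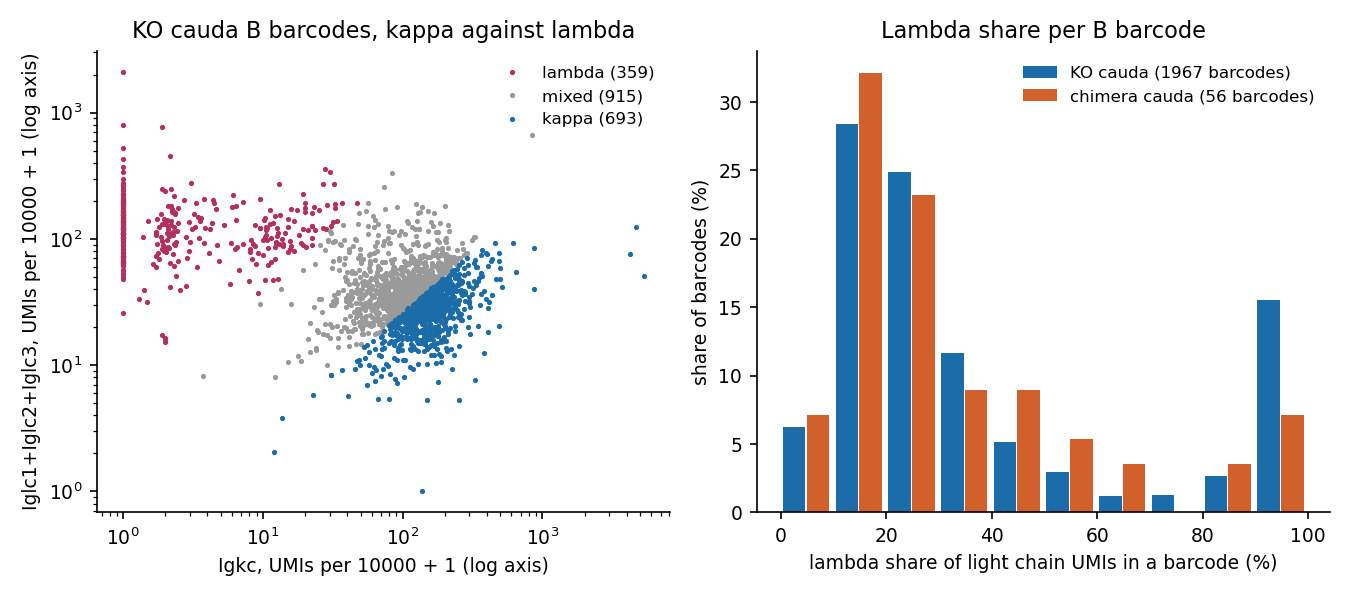
Left, each KO cauda B barcode with at least 10 light chain UMIs by its Igkc level and its summed Iglc1, Iglc2 and Iglc3 level (UMIs per 10000 plus 1, log axes), coloured by call. Right, the share of barcodes (%) by lambda share in bins of 10 percentage points for the KO (blue) and chimera (orange) cauda. Lambda-called barcodes form a separate column with little Igkc, while kappa and mixed barcodes form 1 continuous cloud, and the bin of 10% to 20% is the highest in both libraries.

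The 3 lambda genes were not used alike. Of the 359 lambda-called KO barcodes Iglc2 led in 201 (56.0%), Iglc1 in 128 (35.7%) and Iglc3 in 30 (8.36%). Where Iglc1 led, its median level was 9220 CPM, Iglc2 was at 1282 CPM and Iglc3 at 77.6 CPM. Where Iglc2 led, its median was 9330 CPM, Iglc1 was at 1532 CPM and Iglc3 at 659 CPM. In kappa-called barcodes Iglc3 had a median of 630 CPM, so it was lower in the Iglc1-led barcodes than in barcodes called for the other chain type. Iglc3 lies between Iglv1 and Iglc1 in the order given above. The lambda UMIs of kappa-called barcodes were 29.1% Iglc1, 47.3% Iglc2 and 23.6% Iglc3, against 41.1%, 47.4% and 11.5% in lambda-called barcodes. In the chimera Iglc2 led in 3, Iglc1 in 2 and Iglc3 in 1 of 6.

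Variable gene UMIs, which these 3′ libraries capture rarely, differed between the calls. A UMI of Iglv1 was seen in 28.4% of lambda-called KO barcodes (23.8% to 33.4%) and in 2.16% of kappa-called ones (1.22% to 3.54%). Iglv2 was seen in 11.7% and in 0 of 693, which allows a share of up to 0.433%. Iglv3 was seen in 9.47% (6.65% to 13.0%) and in 5.19% (3.66% to 7.12%), with intervals that overlap. Any kappa variable gene was seen in 25.9% of lambda-called and 56.0% of kappa-called barcodes. In the 1877 other barcodes Iglv1, Iglv2 and Iglv3 were all at 0, which allows a share of up to 0.160%. Iglv1 had 110 UMIs in Iglc1-led and 63 in Iglc2-led barcodes, while Iglv2 had 13 and 38.

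The genes most correlated with Iglc1 over KO B barcodes were Iglc2 (r = 0.38), Plac8 (0.36), Iglv1 (0.35), Ighm (0.30) and Cd74 (0.30), with 0.52, 0.58, 0.34, 0.51 and 0.45 in the chimera. Igkc stood at -0.23 in the KO and at 0.19 in the chimera.

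Jchain, at chr5:88519809-88527891 on the minus strand, was concentrated in very few barcodes. In the KO 215 of 2060 B barcodes had a UMI, or 10.4% (9.15% to 11.8%), against 0.799% of the other barcodes. After thinning to 1000 UMIs the shares were 3.37% (2.62% to 4.26%) and 0.114%. In 8 KO barcodes the immunoglobulin genes, with Jchain among them, held 10% or more of all UMIs. These 8 held 2022 of the 2981 Jchain UMIs, or 67.8%, but Jchain UMIs enter the share that chose them. The highest 3 had 684, 601 and 550 Jchain UMIs, with immunoglobulin shares of 70.1%, 62.3% and 53.0%. All 3 were led by Igkc, with 9552, 12741 and 9015 UMIs, and had 3792, 1426 and 1658 Ighm UMIs and no Igha. The fourth barcode was led by Iglc1, with 2286 UMIs, and had no Igkc UMI. The 8 barcodes also held 14.9% of all Igkc and 7.87% of all Ighm UMIs of KO B barcodes, and 0.604% of Ighg3 UMIs.

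Without these 8 barcodes Jchain was at 50.2 CPM in the KO (47.0 to 53.4) and was seen in 207 of 2052 barcodes, of which 76 had 1 UMI. The chimera held 5 Jchain UMIs, all in 1 shared barcode, and no barcode with immunoglobulin genes at 10% or more, the highest being 3.64%. Against the KO without the 8 barcodes the ratio of chimera to KO was 0.109 (0.0353 to 0.255). Among the 20 unshared chimera B barcodes Jchain was at 0 UMIs, which allows a level of up to 0.729 of the KO value. A level lower by 2-fold is therefore not shown in these 20 shallow barcodes. Which library the shared barcodes came from was not tested. The share of barcodes with Jchain after thinning was 0 of 58 in the chimera, which allows a share of up to 5.17%.

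**Figure D4:**
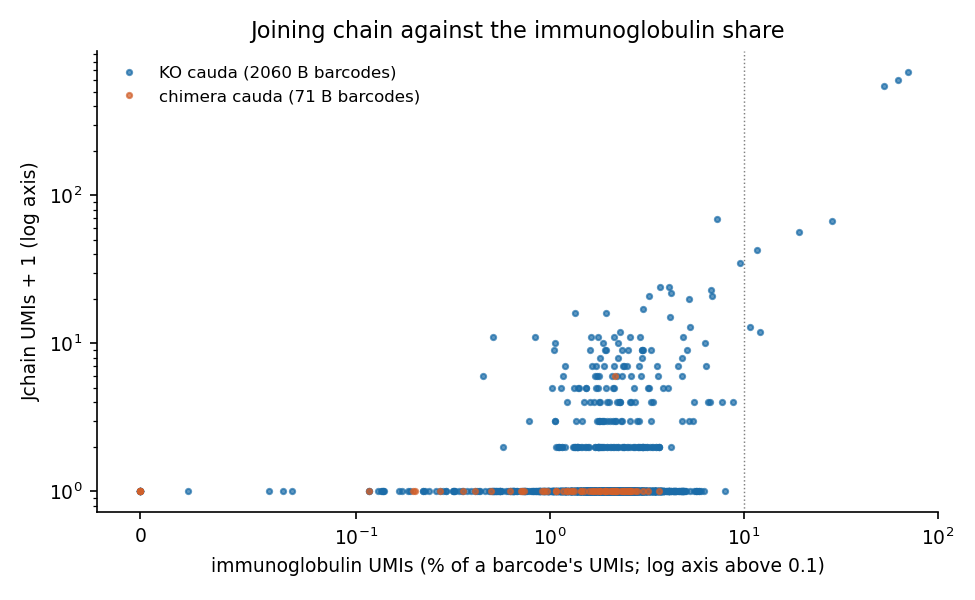
Jchain UMIs plus 1 (log axis) against the share of a barcode's UMIs held by immunoglobulin genes (%, log axis above 0.1%) for the B barcodes of the KO (blue) and chimera (orange) cauda. That share includes the Jchain UMIs. The dotted line marks 10%: the 8 KO barcodes to its right include the 3 with the most Jchain UMIs, and no chimera barcode reaches it.

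Outside the 8 barcodes, those with a Jchain UMI (207, median depth 11167 UMIs) were set against those without (1845, median depth 8400 UMIs). Prdm1, the repressor that drives the plasma cell programme, was at 34.8 against 10.7 CPM, 3.24-fold higher (2.48 to 4.204), and Xbp1, a regulator of secretion, was 1.76-fold higher (1.45 to 2.11). Of the 15 plasma cell and secretion genes 8 had ratio intervals above 1, and Fkbp11 was lower, at a ratio of 0.670 (0.487 to 0.904). How many of all genes had such intervals in this split was not counted, so the 8 of 15 have no background beside them. The intervals of the other 6, Tnfrsf13b, Edem1, Txndc5, Mzb1, Tnfrsf17 and Sdc1, included 1. Sdc1, the plasma cell surface marker CD138, was at 2 and 11 UMIs in all, with no difference detectable at this depth. Ighd was at 0.337 of the level (0.279 to 0.404), and Ighm differed by 1.09-fold. The genes most correlated with Jchain over all KO B barcodes were Epcam (r = 0.29), Prdm1 (0.26), Atp1b1 (0.23), Xbp1 (0.22) and Eaf2 (0.21). Without the 8 barcodes Prdm1, Atp1b1, Xbp1 and Eaf2 stood at 0.19, 0.16, 0.12 and 0.16 and Epcam at 0.29. In the chimera the 5 values were 0.31, -0.02, -0.02, 0.09 and -0.03, but 1 barcode has Jchain there.

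The genes that act with the receptor were compared between the libraries, of whose B barcodes 51 are shared. Of the 16 genes of antigen receptor signalling all were tested and none was past 2-fold in either direction, which is near the background of 6.14% of all genes. Their median log2 ratio was 0.22, as over all genes. The 4 with most UMIs were Cd79a at 3319 CPM in the KO and 3659 CPM in the chimera, Cd79b at 2204 and 2275 CPM, which both belong to the rule that chose the barcodes, Bank1, an adaptor, at 566 and 644 CPM, and Syk, the kinase that binds the receptor subunits, at 443 and 589 CPM. Among the inhibitors of the receptor 7 of 10 were tested and 1 was higher in the chimera, Pirb, at 27.4 and 117 CPM. The 4 inhibitors with most UMIs were Siglecg at 425 and 555 CPM, Ptpn6 at 170 and 197 CPM, Cd22 at 136 and 165 CPM and Fcgr2b at 85.8 and 119 CPM.

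Over all genes tested 5.44% were past 2-fold higher in the chimera and 0.702% lower, and the counts of the following lists were not tested against these shares. Of the 15 plasma cell and secretion genes 11 were tested and 2 were higher in the chimera, Mzb1 at 7.85 and 28.4 CPM and Creld2 at 18.9 and 42.6 CPM. The 4 with most UMIs, Pou2af1, Hsp90b1, Tnfrsf13b and Txndc5, were within 1.35-fold, and Prdm1, below the level tested, was at 15.2 and 4.37 CPM. Of the 7 class switching and germinal centre genes 1 was tested, Batf, at 22.8 and 20.8 CPM. Of the 4 surrogate light chain genes, which pair with the heavy chain in precursor B cells, Igll1 and Vpreb2 were at 0 UMIs in both libraries and Vpreb3 was 2.39-fold higher in the chimera (1.70 to 3.30). Of the B-1 list 7 of 9 were tested and 2 were higher in the chimera, Itgam at 50.4 and 102 CPM and Cd9 at 35.2 and 73.3 CPM, and of the 6 genes of the B-2 list none passed.

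Outside B barcodes the members could be compared in macrophage-marked barcodes, in which Adgre1, Csf1r, C1qa, C1qb and C1qc held at least 0.3% of UMIs, a limit chosen after the data were seen. In the cauda these barcodes carried light chain UMIs beside Ighm. KO cauda macrophage barcodes had 0.346 Ighm UMIs per light chain UMI (0.314 to 0.381) against 0.334 in B barcodes, at an Ighm level of 32.2 CPM. In the chimera the ratios were 0.362 (0.260 to 0.498) and 0.432. In the testis Ighm came almost without light chains: 2663 macrophage barcodes held 4666 Ighm UMIs, at 276 CPM (268 to 284), and 2 light chain UMIs. Ighd was at 8.75 CPM there and Jchain had 1 UMI.

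**Figure D5:**
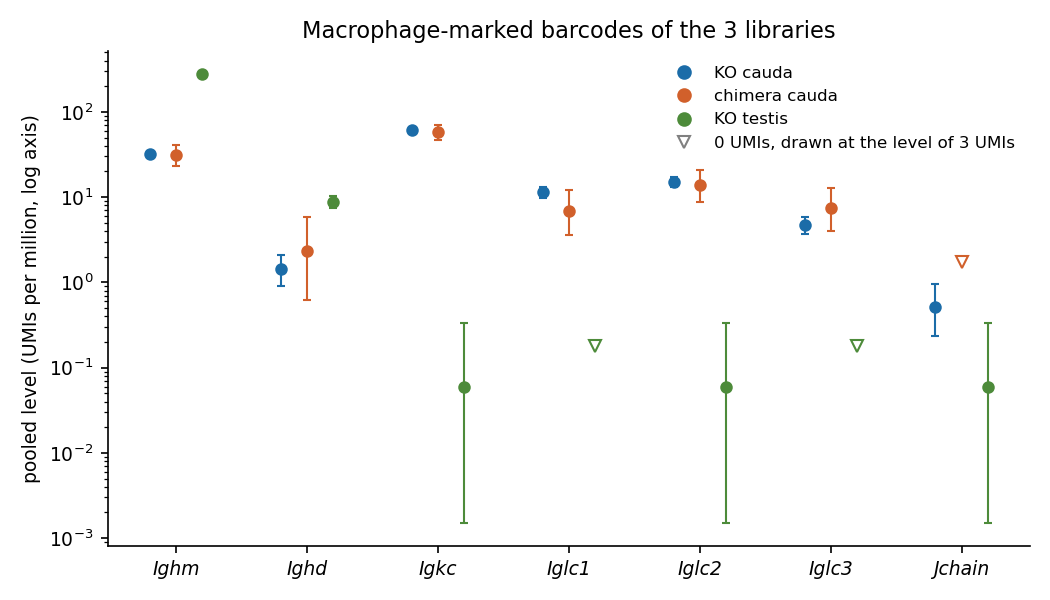
Pooled level of Ighm, Ighd, the light chain constant genes and Jchain in CPM (log axis) in macrophage-marked barcodes of the KO cauda (blue), chimera cauda (orange) and KO testis (green) libraries, with exact 95% Poisson intervals and triangles for 0 UMIs drawn at the level of 3 UMIs. Ighm reaches 276 CPM in the testis, where each light chain gene has at most 1 UMI, while in the cauda Igkc lies above Ighm.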

How the data were processed

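Single-cell libraries were made with 10x Chromium 3′ chemistry, per the labels' protocols, and the authors deposited 3 count matrices of raw UMI counts per gene and barcode, made with Cell Ranger on GRCm38.p6, per the submitters' processing notes. Per the file headers, Cell Ranger 6.1.2 made both KO matrices and Cell Ranger 4 that of the chimera, so version and group cannot be told apart. The chimera matrix is unfiltered (214502 barcodes with a UMI, 5395856 UMIs), so barcodes with at least 500 UMIs were kept. The KO cauda has 41862286 and the KO testis 134795047 UMIs. Counts were pooled over barcodes and scaled per 1000000, with exact Poisson, binomial (Clopper-Pearson) or conditional binomial intervals of 95%, computed with Python 3.11.15, numpy, scipy and pandas, and the code was tested on simulated data. They cover counting error only, and a count of 0 is read as up to 3 counts. No test was made between libraries, since each group is 1 library. Thinning drew 1000 UMIs per barcode once. The Ighd split required 20 Ighm plus Ighd UMIs in place of the 10 planned for the Ighd share per barcode; the share is given at 10. The named genes are the 9 members, the 5 genes with the highest Pearson r with each of 6 members among genes seen in at least 5% of KO B barcodes (mitochondrial, ribosomal and Gm or Rik genes left out), and the 4 genes with most UMIs of each list; others named were chosen after their values were seen. The members and lists were chosen with earlier results of these data known. Alternatives changed the B limit, depth minimum, mitochondrial limit, call limits, thinning, scaling, shared barcodes and doublet marks. Some marker genes are not reported here.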

Additional observations from a re-analysis of the deposited data

Results flagged for a closer look

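Immunoglobulin signal appeared in data that the comparisons of B barcodes do not use. In the testis library, macrophage-marked barcodes held 4666 Ighm UMIs, 93.7% of all Ighm UMIs of that library, at 276 CPM. The other testis barcodes that were neither macrophage-marked nor B were at 2.32 CPM (2.05 to 2.61). Heavy chain variable genes had 1 UMI and heavy chain joining segments 0 UMIs in the same barcodes, and the light chain constant genes had 2. Of the B lymphocyte list Pax5 was at 0, Ms4a1 at 1 and Cd79a at 3 UMIs, while Cd79b had 133, Blnk 884 and Ebf1 1024 UMIs.

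Chimera barcodes below 500 UMIs, 214280 in all, held Ighm at 1648 CPM (1598 to 1700) and Igkc at 2986 CPM (2918 to 3056). They were not sorted by the B rule, so these levels include any B cell RNA. With 500 UMIs or more, chimera B barcodes were at 5727 and 9124 CPM and the others at 38.5 and 73.0 CPM. The shallow barcodes held 43.2% of the library's Ighm and 46.3% of its Igkc UMIs, on 2453757 of its 5395856 UMIs. Of their 26 Jchain UMIs 24 lay in the 3811 barcodes that are also in the KO cauda list. In barcodes called lambda in the KO cauda, 378 of 392 light chain UMIs of these shallow chimera barcodes were lambda (96.4%), and in barcodes called kappa there 137 of 1402 (9.77%). The cause was not tested.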

How the results depend on the processing

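No paired analysis was possible because each group is 1 library. Of 108 alternatives for the shares and the count of members past 2-fold, 19 moved the value beyond its interval or by over 1.5 times, and 21 of 90 moved the ratio of a single member. None turned the direction of Jchain, the member past the rule, while the Ighm ratio passed 1 without the 8 immunoglobulin-rich barcodes (1.05) and the Igha ratio fell below 1 without 1 chimera barcode (0.337), an alternative added after the data were seen. The KO lambda share of called barcodes was 15.6% with limits of 90% and 10% and 23.7% with a limit of 50%. The KO lambda share of light chain UMIs was 33.2% at a B limit of 0.2%, 34.6% without the 8 immunoglobulin-rich barcodes and 37.6% as a mean over barcodes (34.2% in the chimera). The KO Ighd share was 2.36% without the 8 barcodes and 4.10% as a mean over barcodes (5.68% in the chimera). The KO switched share was 1.12% at a limit of 80%. The KO share with a Jchain UMI was 10.4% unthinned and 6.20% at 3000 UMIs. Leaving shared barcodes out of both libraries, an alternative added after the data were seen like that on immunoglobulin-rich barcodes, gave chimera values of 0% lambda calls, 21.2% lambda UMIs, 15.3% Ighd and 0% switched, with 5 members past 2-fold. The count was 2 at a B limit of 0.2% and without barcodes with macrophage or T or NK UMIs, where Igha joined Jchain, but without that chimera barcode, with 29 of its 35 UMIs, the Igha ratios there were 0.369 and 0.391. Depth limits the chimera, with 71 B barcodes, of which 20 are not shared. The cause of the shifts was not tested.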

Other observations

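Variable genes were seen in few barcodes, and the following was chosen after the values were seen. Ighv11-2 had the most UMIs of all heavy chain variable genes in KO B barcodes, 82 of 704, in 48 barcodes. Igkv14-126 was seen in 24 of these 48, or 50% (35.2% to 64.8%), and in 52 of the other 2012, or 2.58% (1.94% to 3.38%). The median depths were 11158 and 8612 UMIs. Both genes are known, as background, as a heavy and light chain pair of B-1 cells that bind phosphatidylcholine. Ighd was at 50.8 CPM (34.3 to 72.6) in the Ighv11-2 barcodes and at 134 CPM (129 to 140) in the rest. Jchain was at 2140 CPM against 92.1 CPM, and 1151 of its 1263 UMIs in the Ighv11-2 barcodes lay in 2 of the 8 immunoglobulin-rich barcodes. Without all 8 it was at 206 CPM (169 to 247) in 46 barcodes and at 45.6 CPM (42.6 to 48.8) in 2006. Igkv2-109, the kappa variable gene with the most UMIs, was seen in 2 of the 48 and in 226 of the other 2012.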
